A study of Mus musculus with 14 samples.

Results

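The genes described here encode the proteins of the mitochondrial ribosome, taken as every gene of the deposited table whose symbol starts with Mrpl or Mrps followed by a digit. They numbered 79 of 14329 genes, of which 77 are protein-coding, 48 with an Mrpl symbol and 29 with an Mrps symbol, and 2 are processed pseudogenes, Mrpl23-ps1 and Mrpl48-ps. They lie on 17 chromosomes, and 0 of them on X or Y. Mitochondrial ribosomes translate the few proteins encoded in mitochondrial DNA, all of them subunits of the respiratory chain and ATP synthase. Their proteins are made from nuclear genes, translated in the cytosol and imported, and they assemble around ribosomal RNAs that are transcribed from mitochondrial DNA. The small subunit (Mrps symbols) reads the messenger RNA, and the large subunit (Mrpl symbols) joins the amino acids. A few symbols mislead, since the proteins of Mrps30 and Mrps18a sit in the large subunit, and that of Mrps36 belongs to the 2-oxoglutarate dehydrogenase complex.

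RNA was sequenced from microglia, the resident macrophages of the central nervous system, sorted as CD45low CD11b+ CX3CR1+ cells from the dorsal horn of the spinal cord of 6-month-old mice, with 2000 cells per sample. K/BxN ST mice had received serum of arthritic K/BxN mice, which carries autoantibodies against glucose-6-phosphate isomerase and induces joint inflammation, and Control ST mice had received control serum. Both sera were given to wild-type C57BL/6 (WT) mice and to TASTPM mice, and cells were collected at day 5. TASTPM mice are heterozygous for human transgenes, among them APP with the Swedish mutation, under the murine Thy-1 promoter, which drives expression mainly in neurons. WT and TASTPM K/BxN ST had 4 libraries each, and WT and TASTPM Control ST had 3 each. The study counts individual mice as replicates, so each library is taken as 1 mouse, and p-values measure the spread between mice. Values are normalized counts, the reads of a gene divided by 1 factor per library.

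The libraries held 14223015 to 20239175 reads on genes. Microglial markers, among them P2ry12, Tmem119 and Cx3cr1, held 2.02% to 7.41% of these reads. Libraries 1 and 2 of WT K/BxN ST and libraries 1 and 2 of TASTPM K/BxN ST stood apart. Neutrophil and monocyte markers, all 14 of which were in the table, held 1.87% and 0.409% of the reads in the WT pair and 1.91% and 1.75% in the TASTPM pair, against 0.000143% to 0.0165% in the other 10 libraries. Microglial markers held 2.02% to 4.77% in these 4 libraries and 5.71% to 7.41% in the other 10. Markers of border-associated macrophages held 0.0681% to 0.204% in the 4 libraries and at most 0.0105% in the other 10, and those of dendritic cells 0.00462% to 0.0467% and at most 0.00134%. The gate of the study also took only cells negative for Ly6C and CCR2, which monocytes entering inflamed tissue carry. A score of sex-linked expression (Xist against Y-linked genes) was negative in these 4 libraries and in 4 of the other 10. Among TASTPM mice given K/BxN serum, libraries 1 to 4 scored -5.06, -8.57, -7.55 and 10.04. TASTPM mice given control serum scored 11.67, 11.77 and -1.33. The score was thus unevenly spread over the sera in TASTPM and, with the WT values below, over the genotypes in Control ST. In WT it was -5.23 and -8.93 in the marker-high K/BxN ST libraries, 10.8 and 11.4 in the other K/BxN ST libraries and -7.15, -3.63 and 3.12 in Control ST, so that leaving out the marker-high libraries also leaves out both WT K/BxN ST libraries with a negative score. Red cell markers held 0.236% of the reads in library 3 of WT Control ST and 0.00285% to 0.0276% in the other 13, and without that library the median log2 fold change of the members was 0.13 for serum in WT, 0.09 between genotypes in Control ST and 0.00355 for the interaction, whose sign thereby turned. The 4 libraries are called marker-high, and values without them, which leave 2 K/BxN ST libraries in each genotype, are given for the members as a whole and for those with the smallest p. In sorted populations, more cells of another type and more RNA per cell cannot be told apart.

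A filter on low counts kept genes with 10 reads or more in at least 7 libraries. All 78 genes that passed it had reads in every library, as had 10410 of the 12645 genes that passed it in the whole table. Their mean over the 14 libraries had a median of 434.6 normalized counts, against 355.2 for all genes that passed. The SD of the log2 value over the 14 libraries had a median of 0.50 for these genes and 0.61 for all genes. Mrpl42, a large-subunit protein without a bacterial counterpart, had the highest mean, at 1094 normalized counts, followed by Mrpl17 at 1028, Mrps2 at 1013, Mrps14 at 1001 and Mrpl4 at 992. Mrps34 had the lowest mean of the protein-coding members, at 96.3. The gene that failed the filter was Mrpl48-ps, with 0 to 26.1 normalized counts. The other pseudogene, Mrpl23-ps1, passed with 10.6 to 56.9, and since a processed pseudogene resembles its parent transcript, its reads may in part be shared with Mrpl23. The gene Mrpl53 was not analysed here.

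**Figure D1:**
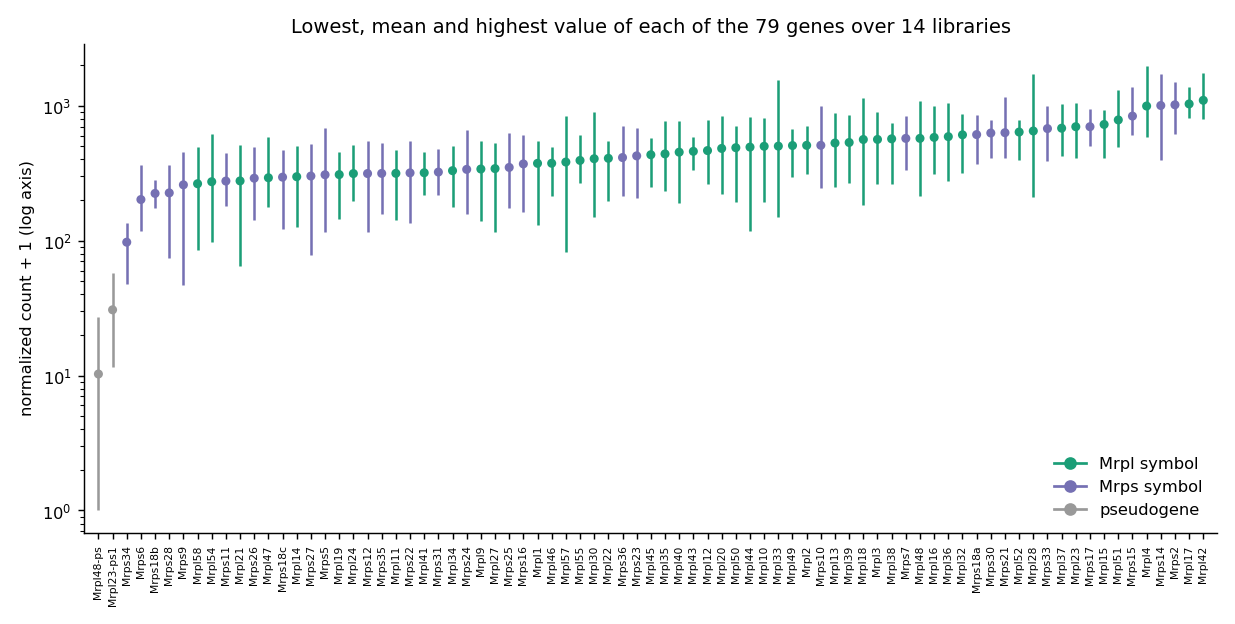
Lowest, mean and highest normalized count plus 1 (log axis) of each of the 79 genes over the 14 libraries, sorted by the mean and coloured by symbol. The protein-coding members span means of 96.3 (Mrps34) to 1094 (Mrpl42), with the 2 pseudogenes below them.

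Per kilobase of the representative transcript, the highest mean levels were those of Mrpl42 with 1411 normalized counts per kilobase, Mrps21 with 1133, Mrpl23 with 1007, Mrps18a with 687 and Mrpl33 with 683. The lowest were those of Mrpl48-ps with 14.6, Mrpl23-ps1 with 51.2 and Mrps25 with 56.9. The order rests on the annotated length. With the longest annotated transcript, the levels per kilobase were 334 for Mrpl42, 267 for Mrps21, 188 for Mrpl23, 156 for Mrps18a and 72.5 for Mrpl33, and 5 of the 10 highest genes were shared between both lengths. Exons of 59 of the 79 genes overlap those of another annotated gene on either strand, 6493 bases of Mrps25 with Nr2c2 and 4250 bases of Mrpl54 with Matk among them. Whether reads were counted by strand is not given in the sources used here, and reads in such stretches cannot be told apart.

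Promoters are shown for 4 genes on which the results below turn. These are Mrpl21 and Mrpl51, with the smallest p in the serum comparison of WT and of TASTPM, Mrpl46, for which all K/BxN ST libraries lay above all Control ST libraries in both genotypes, and Mrpl33, with the widest spread over libraries. Each run holds the 130 bases before and 20 bases from the RefSeq start site in GRCm38.p6, 5′ to 3′ on the strand of the gene, and capitals mark the core motif of ETS factors. The windows are chr19:3282912-3283061 on the plus strand for Mrpl21, chr6:125192070-125192219 on the plus strand for Mrpl51, chr7:78783070-78783219 on the minus strand for Mrpl46 and chr5:31613821-31613970 on the plus strand for Mrpl33.
Mrpl21: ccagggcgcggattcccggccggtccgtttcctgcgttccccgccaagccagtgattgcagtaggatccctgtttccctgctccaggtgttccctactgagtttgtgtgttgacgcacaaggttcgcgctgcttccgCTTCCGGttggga
Mrpl51: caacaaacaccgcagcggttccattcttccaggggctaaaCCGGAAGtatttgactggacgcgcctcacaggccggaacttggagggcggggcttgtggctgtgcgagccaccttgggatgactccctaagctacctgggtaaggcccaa
Mrpl46: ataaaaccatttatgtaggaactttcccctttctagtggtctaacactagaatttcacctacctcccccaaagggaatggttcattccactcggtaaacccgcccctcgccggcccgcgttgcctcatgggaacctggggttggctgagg
Mrpl33: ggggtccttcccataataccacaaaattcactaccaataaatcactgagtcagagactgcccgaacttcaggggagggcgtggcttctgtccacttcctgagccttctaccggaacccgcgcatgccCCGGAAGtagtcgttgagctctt
The motif CCGGAAG was searched on both strands in windows of 300 bases (250 before the start and 50 from it), which were found for 68 of the 79 genes. It was present in 25 of their 74 windows (33.8%) and in 2910 of all 32851 windows (8.86%). In Mrpl21 it lies on the reverse strand with its first base at position 8 from the start, in Mrpl51 on the gene's strand at -90 and in Mrpl33 on the gene's strand at -3, and the window of Mrpl46 holds none. A match of letters is not a site of binding, and motifs of other factors are not reported here.

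Summed over the 79 genes, WT Control ST libraries 1 to 3 held 0.177%, 0.203% and 0.183% of the reads on genes. With K/BxN serum, WT libraries 1 to 4 held 0.279%, 0.242%, 0.193% and 0.182%. In TASTPM the shares were 0.199%, 0.234% and 0.193% with control serum, and with K/BxN serum they were 0.329%, 0.252%, 0.190% and 0.205%. The 4 highest shares of the 14 were those of the 4 marker-high libraries, and the other K/BxN ST libraries lay within or below the range of the Control ST libraries in TASTPM and within it in WT. The 95% Wilson interval of the highest share was 0.326% to 0.332%, and intervals cover counting error only. The part of the neutrophil, monocyte, border-associated macrophage and dendritic cell reads in these shares was not tested.

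**Figure D2:**
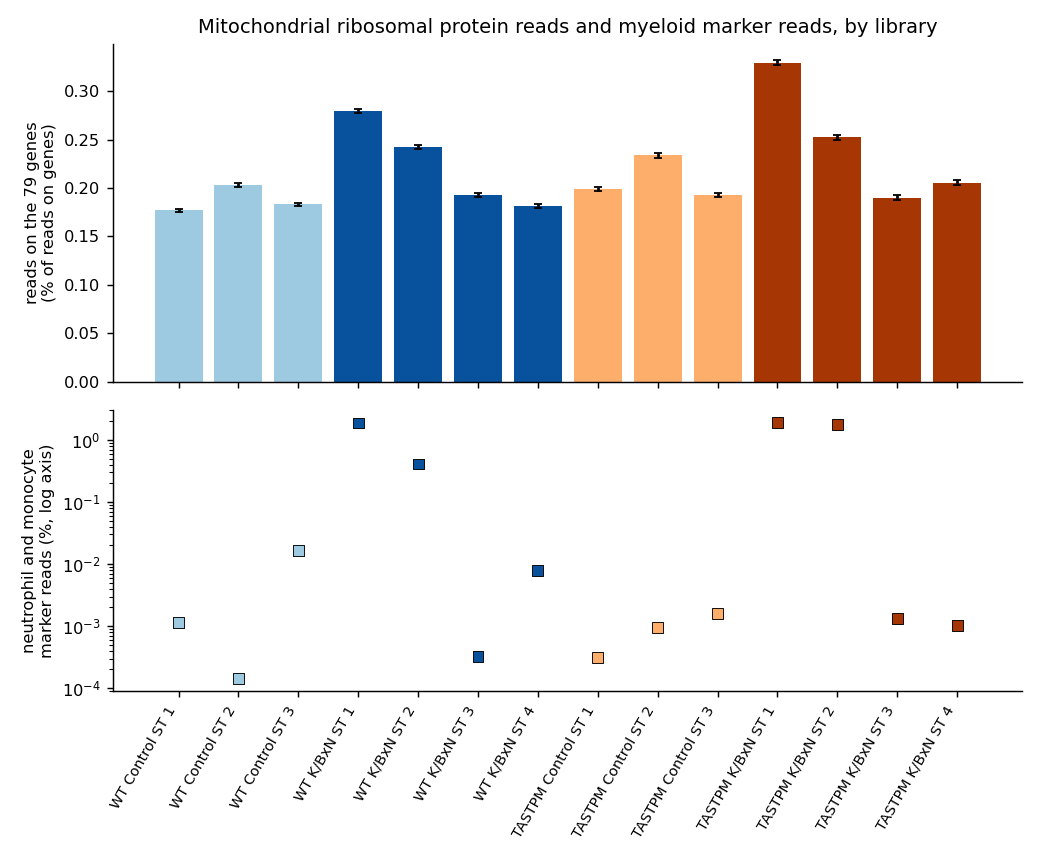
Upper panel, reads on the 79 genes as a percentage of reads on genes in each library, with 95% Wilson intervals. Lower panel, percentage of reads on 14 neutrophil and monocyte markers (log axis). The 4 libraries with 0.409% to 1.91% marker reads also hold the 4 highest upper bars, 0.242% to 0.329%.

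In each genotype, the 2 marker-high libraries had the highest medians of both subunits among K/BxN ST libraries. Set against the mean of the Control ST libraries of the same genotype, the log2 ratio of the 50 large-subunit genes had a median of 0.53 and 0.38 in libraries 1 and 2 of WT K/BxN ST and 0.03 and -0.05 in libraries 3 and 4. For the 26 small-subunit genes the medians were 0.43, 0.30, 0.02 and -0.14. In TASTPM K/BxN ST libraries 1 to 4 the large subunit had medians of 0.71, 0.28, -0.30 and 0.05, and the small subunit 0.49, 0.33, -0.07 and -0.06. The marker-high libraries thus lay above the others for both subunits in both genotypes, while the median of all genes tested lay between -0.0039 and 0.11 in every library. The mean small-subunit level per kilobase of the representative transcript was 0.66 to 0.88 of the mean large-subunit level over the 14 libraries.

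**Figure D3:**
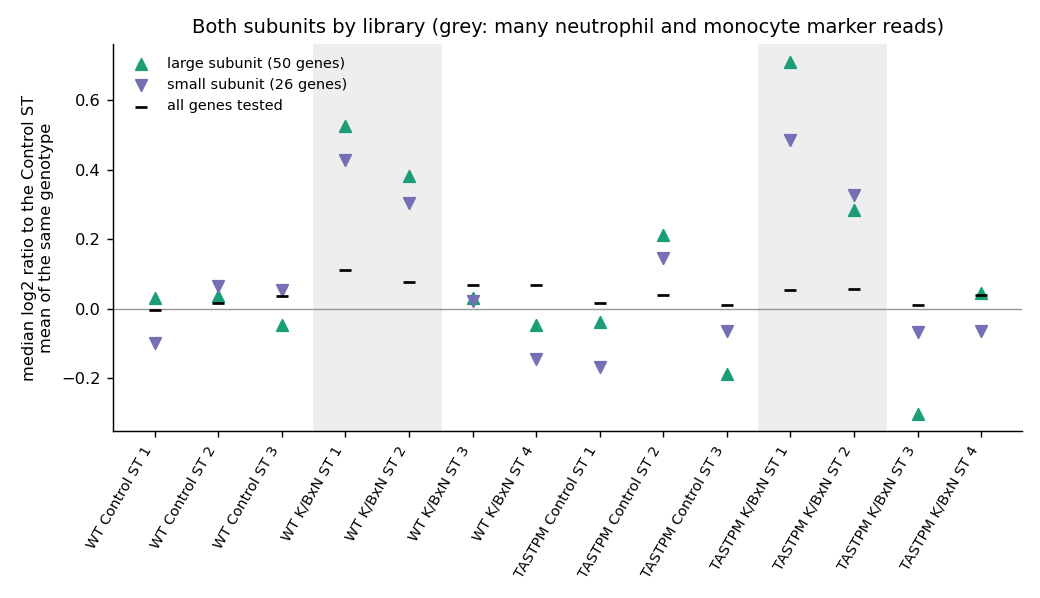
Log2 ratio of each library to the mean of its genotype's Control ST libraries, as the median over large-subunit, small-subunit and all tested genes. The marker-high libraries, in grey, hold the highest medians of both subunits, up to 0.71, while the medians of all genes stay at or below 0.11.

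The first comparison asks whether K/BxN serum changed these genes in WT microglia. By limma, 0 of the 78 genes were called, and 1 of all 12645 genes was (0.00791%). The lowest adjusted p of a member was 0.668. By edgeR (0.0% of all genes) and DESeq2 (1.02%), 0 members had an adjusted p below 0.05 as well. At an unadjusted p below 0.05, 4 members were higher by limma (5.13%, against 4.77% of all genes) and 0 were lower (against 2.36%). In either direction, edgeR gave 4 (against 6.18% of all genes) and DESeq2 gave 6 (against 7.92%). The log2 fold change was positive for 53 members (67.9%) against 54.0% of all genes, with a median of 0.17 against 0.06. All WT K/BxN ST libraries lay above all WT Control ST libraries for 8 members (10.3%) against 3.67% of all genes, and below them for 0 against 3.71%.

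Among large-subunit genes with a higher mean in WT K/BxN ST, Mrpl21, whose protein has a bacterial counterpart, had the smallest p. The gene lies on chromosome 19 from 3332776 to 3351862 (GRCm39, plus strand). Its normalized counts in WT libraries 1 to 4 with K/BxN serum were 348.7, 288.7, 264.0 and 171.2, and with control serum they were 63.7, 166.0 and 149.9. The groups did not overlap, although library 4 of K/BxN ST was only slightly above library 2 of Control ST. Its log2 fold change was 1.15 ± 0.45 (SE, limma), with an unadjusted p of 0.0218, an adjusted p of 0.668 and an exact permutation p of 0.0571 (two-sided, 35 splits). The smallest p these splits allow is 0.0286. Without library 1 of WT Control ST the log2 fold change of Mrpl21 was 0.72.

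Mrpl54 and Mrpl50 encode large-subunit proteins particular to mitochondria. Mrpl54 had 467.9, 440.2, 376.3 and 193.0 normalized counts with K/BxN serum and 182.8, 97.2 and 191.0 with control serum, so that the lowest K/BxN ST library was next to the highest Control ST library. Its log2 fold change was 1.21 ± 0.54 (adjusted p = 0.684 by limma). Mrpl50 had 386.6, 495.1, 456.3 and 657.5 against 193.1, 290.9 and 466.1, and these groups overlapped. For Mrpl50 the log2 fold change was 0.72 ± 0.35 (adjusted p = 0.699 by limma), and 0.41 without library 1 of Control ST.

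In the small subunit, Mrps5 and Mrps25 were the members with the smallest p. Mrps5, the counterpart of a bacterial protein, had 351.4, 239.1, 335.7 and 290.0 normalized counts with K/BxN serum and 114.3, 175.2 and 186.2 with control serum. The groups did not overlap, and marker-high library 2 was the lowest of the K/BxN ST values. Mrps5 had a log2 fold change of 0.95 ± 0.39, with an adjusted p of 0.684 by limma and an exact permutation p of 0.0286, the smallest possible. Mrps25, which is particular to mitochondria, had 523.9, 565.1, 357.2 and 275.9 against 174.3, 175.2 and 260.7, again without overlap but with the marker-high libraries highest. For Mrps25 the log2 fold change was 1.05 ± 0.45 (adjusted p = 0.684 by limma).

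The members with the smallest p among those with a lower mean in WT K/BxN ST were Mrps7, Mrps31, Mrpl22, Mrps33 and Mrpl57. Mrps7, a protein of the head of the small subunit, had 504.0, 337.4, 556.6 and 330.4 normalized counts with K/BxN serum and 837.0, 575.1 and 482.3 with control serum. The highest K/BxN ST value exceeded the lowest Control ST value. Its log2 fold change was -0.55 ± 0.30 (unadjusted p = 0.0844, adjusted p = 0.718 by limma). Mrpl22, whose bacterial counterpart lines the exit tunnel of the nascent chain, had a log2 fold change of -0.41, and Mrps31 and Mrps33 had -0.47 and -0.41. Mrpl57 had -0.71 ± 0.69 (adjusted p = 0.811), with normalized counts of 737.1, 417.1, 156.5 and 81.8 against 498.6, 340.3 and 412.6. In all 5 genes the groups overlapped. Single libraries moved several of these values by more than 1.5 times. Mrpl57 had -0.18 without library 4 of K/BxN ST and -1.23 without library 1, Mrpl22 -0.15 without library 3 and Mrps33 -0.23 without library 4. Leaving out a Control ST library gave Mrps7 -0.32 (library 1) and Mrps31 -0.72 (library 3).

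In TASTPM microglia, limma likewise called 0 of the 78 genes and 0 of all genes (0.0%), and edgeR (0.0%) and DESeq2 (0.127%) gave 0 members at an adjusted p below 0.05. Unadjusted p-values below 0.05 were found for 2 members with higher values by limma (2.56%, against 2.62% of all genes) and 0 with lower values (against 1.6%), for 2 by edgeR (against 4.03%) and for 3 by DESeq2 (against 5.46%). The log2 fold change was positive for 53 members, against 50.4% of all genes, and its median was 0.10 against 0.01. TASTPM K/BxN ST lay above TASTPM Control ST without overlap for 4 members (5.13%), against 2.67% of all genes, and below it for 0, against 2.74%.

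All 4 of these genes encode large-subunit proteins, as do 50 of the 78 tested genes. Mrpl51, particular to mitochondria and located on chromosome 6 from 125168764 to 125173232 (GRCm39, plus strand), had 1296, 1264, 879 and 819.1 normalized counts in libraries 1 to 4 with K/BxN serum. With control serum it had 491.0, 818.2 and 544.2, so that library 4 of K/BxN ST was above library 2 of Control ST by less than 1 count. Mrpl51 had a log2 fold change of 0.79 ± 0.30, with an unadjusted p of 0.0184 and an adjusted p of 0.964 by limma and an exact permutation p of 0.0571. In WT its log2 fold change was 0.02.

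Mrpl46, also particular to mitochondria, was the member without overlap in both genotypes, a trait that was not counted over all genes. Its normalized counts in TASTPM were 452.3, 468.0, 415.9 and 465.9 with K/BxN serum and 226.7, 410.8 and 211.7 with control serum. Those in WT were 396.5, 406.5, 379.8 and 489.6 with K/BxN serum and 300.9, 269.1 and 326.6 with control serum. The marker-high libraries were not its highest in WT, where library 4 was. Its log2 fold change was 0.73 ± 0.29 in TASTPM (adjusted p = 0.964 by limma) and 0.48 ± 0.29 in WT (adjusted p = 0.741), and the exact permutation p was 0.0286 in each, the smallest possible. Without the marker-high libraries the log2 fold changes of Mrpl46 were 0.70 and 0.53. Mrpl46 lies on chromosome 7 from 78424922 to 78433279 (GRCm39, minus strand) and shares 173 exonic bases with Mrps11, a small-subunit gene on the opposite strand that was looked up for this position. For Mrps11 the log2 fold changes were -0.12 in TASTPM and 0.32 in WT.

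Mrpl15 and Mrpl2, counterparts of bacterial proteins, were the others without overlap in TASTPM. Mrpl15 had 875.6, 898.8, 862.3 and 934.1 normalized counts with K/BxN serum and 576.6, 571.8 and 721.4 with control serum, with K/BxN ST libraries close to each other. Its log2 fold change was 0.53 ± 0.25 (adjusted p = 0.964 by limma; exact permutation p = 0.0286). Mrpl2 had 555.3, 577.4, 697.8 and 473.8 against 463.8, 396.4 and 310.7. Its log2 fold change was 0.57 ± 0.30 (adjusted p = 0.964). In WT the log2 fold changes of Mrpl15 and Mrpl2 were -0.14 and -0.27. Mrpl12, whose bacterial counterpart forms the stalk that recruits translation factors, had 0.59 ± 0.33 in TASTPM with overlapping groups, and 0.33 without library 3 of Control ST.

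The smallest p-values among members with a lower mean in TASTPM K/BxN ST were those of Mrpl44, Mrpl9, Mrps30, Mrpl27 and Mrps7. Mrpl44, a large-subunit protein with a fold of the RNase III family, had 580.3, 599.2, 116.3 and 419.7 normalized counts with K/BxN serum and 559.9, 829.4 and 430.7 with control serum. Library 3 of K/BxN ST alone was far below the rest. For Mrpl44 the log2 fold change was -0.69 ± 0.47 (adjusted p = 0.964 by limma), and it was -0.15 without library 3. Mrpl9 had -0.54, Mrpl27 -0.51, Mrps30 -0.33 and Mrps7 -0.27, all with overlapping groups. Without library 3 of K/BxN ST the log2 fold changes were -0.24 for Mrpl9, -0.14 for Mrpl27 and -0.15 for Mrps7. Mrpl27 had -1.001 without library 3 of Control ST, and Mrps7 had -0.44 without library 1 of K/BxN ST.

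Leaving out the 4 marker-high libraries turned the direction of the list as a whole. The median log2 fold change of the 78 genes became -0.03 in WT (34 positive) and -0.11 in TASTPM (33 positive), while the medians of all genes were 0.04 and -0.01. With a score of the neutrophil and monocyte markers as a term in the fit of all 14 libraries, the medians were -0.01 (38 positive) and -0.14 (32 positive). By limma, 0 members were called in either setting. In WT, the values for Mrpl21, Mrps5, Mrps25, Mrpl54 and Mrpl50 without these libraries were 0.86, 1.00, 0.65, 0.84 and 0.88 on the log2 scale, so these genes kept their direction, with unadjusted p-values of 0.0679 to 0.198. In TASTPM, Mrpl51 had 0.49, Mrpl15 0.53, Mrpl2 0.58 and Mrpl12 0.23.

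Members with a lower mean in K/BxN ST had the smallest p-values without the marker-high libraries. Mrpl57 had -1.86 in WT (unadjusted p = 0.00729, adjusted p = 1.00 by limma) and Mrpl44 -1.40 in TASTPM (unadjusted p = 0.0219, adjusted p = 0.996 by limma), both further from 0 than in all 14 libraries. In WT, Mrpl22 had -0.77, Mrps33 -0.54, Mrps7 -0.52 and Mrps31 -0.20, and in TASTPM, Mrpl27 had -1.19, Mrpl9 -0.70, Mrps7 -0.50 and Mrps30 -0.36. At an unadjusted p below 0.05 by limma, 0 members were higher in WT (against 2.4% of all genes) and 1 was lower (1.28%, against 1.85%). In TASTPM 0 were higher (against 1.83%) and 2 were lower (2.56%, against 2.2%), Mrpl44 and Mrpl36, the latter named after its values were seen. With the marker score as a term, 1 member was higher in WT (Mrps5, against 3.74% of all genes) and 4 were lower (5.13%, against 2.19%), Mrpl57, Mrpl22, Mrps33 and Mrps7. In TASTPM 1 was higher (Mrpl46, against 2.33%) and 2 were lower (2.56%, against 2.25%), Mrpl36 and Mrpl27.

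**Figure D4:**
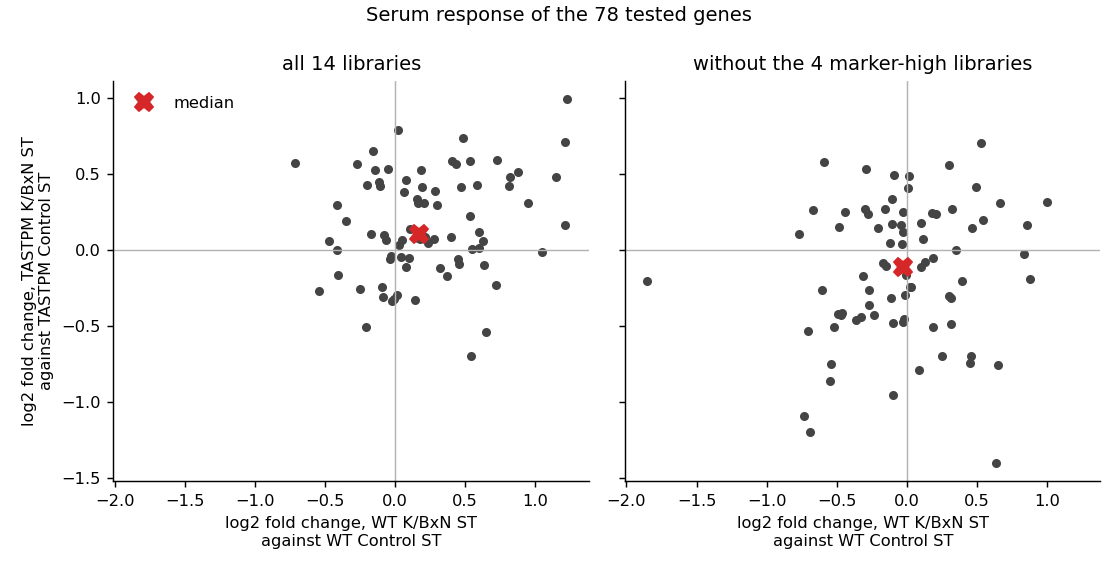
Log2 fold change of the 78 tested genes in WT (x axis) and TASTPM (y axis), K/BxN ST against Control ST, in all 14 libraries (left) and without the 4 marker-high libraries (right). The cross marks the medians, 0.17 and 0.10 on the left and -0.03 and -0.11 on the right.

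In 11 of the 78 genes (14.1%) the 4 marker-high libraries lay above all of the other 10 libraries, against 7.63% of all genes tested, and in 0 they lay below, against 2.51%. These 11 genes were Mrpl4, Mrpl14, Mrpl20, Mrpl30, Mrpl33, Mrpl34, Mrpl36, Mrpl37, Mrpl58, Mrps24 and Mrps25. Mrpl58, also known as Ict1, encodes a peptidyl-tRNA hydrolase that is built into the large subunit. A marker-high library held the highest value of 46 members (59.0%), against 26.1% of all genes tested, and library 1 of TASTPM K/BxN ST alone held it for 35. Lowest values were held for 18 members by library 3 of TASTPM K/BxN ST and for 16 by library 1 of WT Control ST. Library 3 of TASTPM Control ST held them for 13. Lowest values were not counted over all genes.

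Mrpl33, the counterpart of a small bacterial protein of the large subunit, had the widest spread of the tested members, with an SD of 1.26 on the log2 scale over the 14 libraries. With K/BxN serum it had 1553, 946, 219.8 and 162.5 normalized counts in WT libraries and 1557, 811.3, 190.3 and 178.3 in TASTPM libraries, with the marker-high libraries first in each case. With control serum the values were 156.5, 363.0 and 149.0 in WT libraries and 264.3, 297.5 and 152.6 in TASTPM libraries. The other K/BxN ST libraries were thus within the range of the Control ST libraries of their genotype. The log2 fold change of Mrpl33 was 1.23 ± 0.84 in WT and 0.99 ± 0.84 in TASTPM (adjusted p = 0.774 and 0.964 by limma), and without the marker-high libraries it was -0.11 and -0.31.

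Mrps9, the counterpart of a bacterial small-subunit protein, had an SD of 1.15. Its lowest normalized counts were 45.9 and 53.6 in libraries 1 and 2 of WT Control ST and 54.5 in library 4 of WT K/BxN ST, while the other 11 libraries had 185.9 to 454.4. Mrpl57 had an SD of 0.95 and 81.8 to 840.2 normalized counts. The members with the smallest SD were Mrpl43 with 0.21 (330.8 to 581.7), Mrpl17 with 0.21 (811.8 to 1374) and Mrps18b with 0.24 (173.4 to 278.9). Of the members whose symbol and complex differ, Mrps30 had 408.9 to 784.5, Mrps18a 370.1 to 847.5 and Mrps36 212.1 to 705.0, and their log2 fold changes with serum were -0.02, -0.03 and -0.07 in WT and -0.33, -0.04 and 0.07 in TASTPM.

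**Figure D5:**
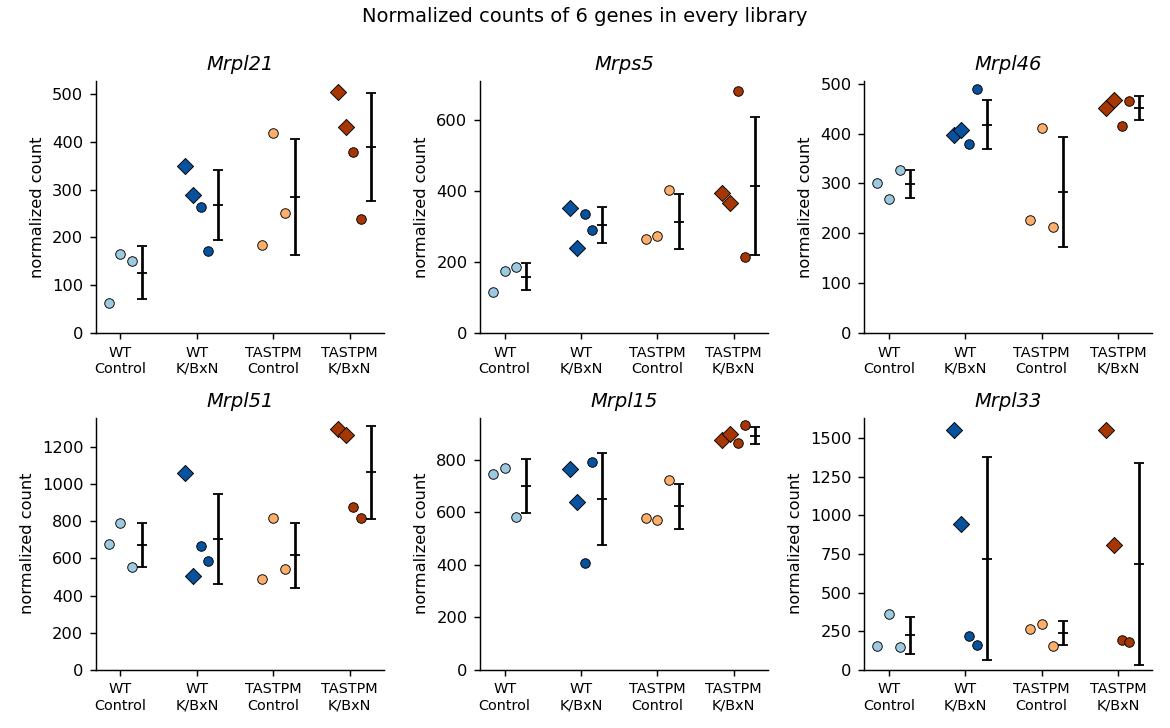
Normalized counts of 6 genes in every library, with diamonds for the marker-high libraries and bars for the mean and SD of each group (4 libraries in K/BxN ST, 3 in Control ST). K/BxN ST lies above Control ST for Mrpl46 in both genotypes, for Mrpl21 and Mrps5 in WT and for Mrpl51 and Mrpl15 in TASTPM, while for Mrpl33 only the diamonds, 811.3 to 1557, lie above Control ST.

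The interaction of genotype and serum, which asks whether the response differed between TASTPM and WT, gave 0 called members by limma (lowest adjusted p = 0.999), 0 of all genes (0.0%), and edgeR and DESeq2 gave 0 members as well (0.0% and 0.0949% of all genes). At an unadjusted p below 0.05 there were 0 members by limma (against 1.42% of all genes higher and 1.63% lower), by edgeR (against 2.6%) and by DESeq2 (against 3.18%). The difference between the responses was positive for 33 of 78 genes (42.3%, against 45.8% of all genes), with a median of -0.09 against -0.05. The smallest p-values belonged to Mrpl9 (-1.19 ± 0.59, unadjusted p = 0.0625), Mrpl2 (0.84 ± 0.42, unadjusted p = 0.0671) and Mrpl50 (-0.95 ± 0.50, unadjusted p = 0.0769). Mrpl9 had 545.6, 377.3, 313.0 and 387.1 normalized counts in WT libraries with K/BxN serum, against 203.4, 357.1 and 222.5 with control serum. In TASTPM libraries it had 435.7, 194.0, 139.8 and 391.5 with K/BxN serum, against 325.9, 334.2 and 505.2 with control serum. The groups overlapped in both genotypes. Without the marker-high libraries the median difference between the responses was -0.09 (36 positive), and Mrpl9 had -1.16, Mrpl2 1.17 and Mrpl50 -1.07. Unadjusted p-values below 0.05 were then found for 0 members with a positive difference (against 1.77% of all genes) and 2 with a negative one (2.56%, against 2.14%), Mrpl44 with -2.04 ± 0.74 and Mrps25 with -1.41 ± 0.64 (adjusted p = 0.998 by limma for each).

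Between genotypes, limma called 0 members (and 0.0% of all genes) in Control ST and in K/BxN ST, and edgeR (0.0% in both) and DESeq2 (0.332% and 0.0%) gave 0 at an adjusted p below 0.05. In Control ST the log2 fold change of TASTPM against WT was positive for 48 members (61.5% against 53.2%), with a median of 0.08 against 0.04. At an unadjusted p below 0.05, 3 members were higher in TASTPM by limma (3.85%, against 3.41% of all genes) and 0 lower (against 2.16%), 3 differed by edgeR (against 4.6%) and 4 by DESeq2 (against 5.72%). These 3 were Mrpl50 with 0.98 ± 0.38, Mrpl21 with 1.19 ± 0.48 and Mrps5 with 0.98 ± 0.42, with adjusted p-values of 0.815 to 0.839. They were also among the genes with the smallest p for serum in WT, and both comparisons share the WT Control ST libraries. Mrpl21 had 0.76 without library 1 of WT Control ST. The normalized counts of the TASTPM libraries were 637.2, 450.8 and 704.2 for Mrpl50, 183.8, 418.6 and 250.8 for Mrpl21, and 265.3, 273.1 and 402.5 for Mrps5. TASTPM Control ST lay above WT Control ST for Mrpl21 and Mrps5 (exact permutation p = 0.100, the smallest of 20 splits), and the groups of Mrpl50 overlapped. Groups without overlap were found for 8 members with higher values in TASTPM (10.3%, against 4.97%) and for 1 with lower values (1.28%, against 4.71%), which was Mrpl11, named after its values were seen.

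In K/BxN ST, 46 members had a positive log2 fold change of TASTPM against WT (59.0% against 49.9%), with a median of 0.06 against -0.00. By limma 2 members had an unadjusted p below 0.05 (2.56%, against 1.0% of all genes), Mrpl51 with 0.62 ± 0.28 and Mrpl15 with 0.50 ± 0.23, while 0 were lower (against 0.902%), and edgeR (against 1.46%) and DESeq2 (against 1.92%) gave 0. Mrpl51 had 1058, 503.9, 667.7 and 588.8 normalized counts in the WT libraries, so that TASTPM and WT overlapped. Mrpl15 had 765.1, 639.4, 406.1 and 790.5 in the WT libraries, all below the lowest TASTPM K/BxN ST value of 862.3. Mrpl17 had 952.9, 987.5, 895.9 and 852.7 in the WT libraries and 1018, 1100, 1151 and 1236 in the TASTPM libraries. Its values with control serum, also without overlap, were 915.7, 961.5 and 811.8 in WT and 1009, 1374 and 1124 in TASTPM. The log2 fold change of Mrpl17 was 0.29 ± 0.17 in K/BxN ST and 0.37 ± 0.20 in Control ST (adjusted p = 1.00 and 0.886 by limma; exact permutation p = 0.0286 and 0.100, the smallest possible in each). Mrpl15 and Mrpl17 were the 2 members without overlap in K/BxN ST (2.56%, against 1.16% of all genes). Without the marker-high libraries the median in K/BxN ST was 0.01 (39 positive), and Mrpl51 had 0.44, Mrpl15 0.66 and Mrpl17 0.45. Mrpl15 had 0.29 without library 3 of WT K/BxN ST.

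The other genes of mitochondrial translation numbered 72 and gave 0 genes at an adjusted p below 0.05 by limma or edgeR in either serum comparison. DESeq2 gave 0 in WT (against 1.02% of all genes) and 2 in TASTPM (against 0.127%), mt-Nd4l and mt-Co3. At an unadjusted p below 0.05, limma, edgeR and DESeq2 gave 4, 2 and 3 genes in WT, against 7.13%, 6.18% and 7.92% of all genes. In TASTPM they gave 4, 3 and 5, against 4.22%, 4.03% and 5.46%. Of 5 mitoribosomal proteins with other symbols, Dap3, Ptcd3, Chchd1, Aurkaip1 and Gadd45gip1, the log2 fold change was positive for 3 in WT and for 3 in TASTPM, and 0 had an unadjusted p below 0.05. Aurkaip1 had the smallest p in both genotypes, and in the 4 marker-high libraries it had 718.1 to 1081 normalized counts against 302.6 to 581.8 in the other 10. Of 19 assembly factors, 10 were positive in each genotype, and 1 had an unadjusted p below 0.05, Gtpbp10 in WT with 1.11 ± 0.47. Rbfa, which binds the small subunit while it matures, had the smallest p of this list in TASTPM, with a log2 fold change of 1.00 ± 0.48 (unadjusted p = 0.0563). Of 16 translation factors, 11 were positive in WT and 6 in TASTPM. Mtfmt, the enzyme that formylates the initiator methionyl-tRNA, had 159.9 to 204.6 normalized counts in WT with K/BxN serum against 7.50, 8.38 and 324.7 with control serum. Mtfmt had a log2 fold change of 2.65 ± 0.98 (adjusted p = 0.650). The smallest p in TASTPM was that of Lrpprc, which stabilises mitochondrial messenger RNAs, with 0.47. Of 17 mitochondrial aminoacyl-tRNA synthetases, 9 were positive in WT and 8 in TASTPM, with the smallest p for Cars2 in WT (-0.98) and Lars2 in TASTPM (-0.33).

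The 15 mitochondrially encoded transcripts, which these ribosomes read or contain, differed in how far they varied between libraries. The highest of the 14 values was 2.33 times the lowest for mt-Nd5, 2.61 times for mt-Co1 and 2.60 times for mt-Cytb, but 278 times for mt-Co2, 406 times for mt-Atp8 and 450 times for mt-Co3, against a median of 3.32 times over the 78 ribosomal protein genes. In WT 0 of 15 had a positive log2 fold change (median -0.33; smallest p for mt-Nd2, with -0.57), and in TASTPM 7 had (median -0.08). At an unadjusted p below 0.05, 4 were higher in TASTPM K/BxN ST (against 2.62% of all genes), with the smallest p for mt-Co3, a subunit of cytochrome c oxidase (4.97 ± 1.13, unadjusted p = 5.56e-04, adjusted p = 0.964 by limma). It had 477.4, 312.0 and 85.4 normalized counts in TASTPM with control serum and 2272 to 38420 with K/BxN serum, but 1022 to 34250 over the WT libraries. In Control ST, 4 of the 15 were lower in TASTPM than in WT at that threshold (against 2.16% of all genes). There mt-Co3 had -5.49 (unadjusted p = 4.19e-04, adjusted p = 0.442 by limma). For the interaction 6 of the 15 were higher (against 1.42%). All 3 comparisons share the TASTPM Control ST libraries. The large ribosomal RNA mt-Rnr2 had 18290 to 107100 over the 14 libraries, and its log2 fold changes were -0.02 in WT and -0.34 in TASTPM. Whether reads of these transcripts were shared with nuclear copies of mitochondrial sequence was not tested.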

How the data were processed

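The authors amplified cDNA from sorted microglia with SMART-Seq v4, aligned 14 libraries with HISAT2 2.1 to GRCm39, counted reads with featureCounts 1.5.2 (Ensembl annotation) and deposited the reads of each gene divided by 1 factor per library, a normalized signal. Whole reads were recovered for 100% of values (tolerance 0.01 reads). Entries with a repeated identifier (7 of 14336) held the same values as their first copy and were dropped.

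Fold changes are on the scale of log2(normalized count + 1), which understates the change of low genes. A single fit of the 4 groups was made with limma (3.58.1; R 4.3.3; trended prior variance) for the 12645 genes that had 10 or more reads in 7 or more libraries. The library numbers of TASTPM K/BxN ST are those of the labels, and others follow the order of the deposited values. A gene was called at a Benjamini-Hochberg adjusted p below 0.05 over all genes tested and an absolute log2 fold change above 1. Tests of the recovered reads with edgeR 4.0.16 and DESeq2 1.42.0 were alternatives. Single genes were also given two-sided exact permutation tests over 35, 20 or 70 splits of libraries. The fits were tested on simulated data. The members, gene lists and tests were chosen with earlier results of these data known.

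Genes were named by rule: in each serum comparison the 5 higher and 5 lower members with the smallest p, the 3 with the smallest p for the interaction and for each genotype comparison, the 5 highest and 3 lowest levels per kilobase, the 3 largest and 3 smallest SDs, the member that failed the filter, Mrps36, Mrps30 and Mrps18a, and the gene with the smallest p of each pathway list. Positions and lengths are from GENCODE on GRCm39 (representative: the Ensembl canonical transcript), and promoters from RefSeq on GRCm38.p6. Alternatives were TMM factors, library totals, a pseudocount of 4, no filter, the compared groups alone, covariates for marker and sex-linked expression, each library left out, the 4 marker-high libraries left out (more than 5 times the highest Control ST marker share), and, added after seeing the data, levels per exon union. Part of the TASTPM genotype is not reported here.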

Additional observations from a re-analysis of the deposited data

Results flagged for a closer look

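Among 68 sets of 4 K/BxN ST values (31 named genes and 3 summaries of each library, in both genotypes), 1 held a value far from the others, and chance gives about 1 in 20. Mrps31, a small-subunit protein, had 359.5 normalized counts in library 3 of TASTPM K/BxN ST and 278.7, 287.3 and 284.3 in the others.

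For Mrpl2 and Mrpl44, K/BxN ST libraries lay on opposite sides of the mean Control ST count in the genotypes. All 4 values of Mrpl2 were below it in WT and above it in TASTPM, and those of Mrpl44 the other way round. This rests on the scale, since against the mean of the log2 values 2 of the 4 WT libraries were above it for Mrpl2, and 1 of the 4 TASTPM libraries for Mrpl44. The interaction was 0.84 ± 0.42 for Mrpl2 and -1.23 ± 0.67 for Mrpl44, with an adjusted p of 0.999 by limma for each. Without library 3 of TASTPM K/BxN ST, which held 116.3 normalized counts of Mrpl44, the interaction of Mrpl44 was -0.69 ± 0.42, and without the 4 marker-high libraries it was -2.04 ± 0.74.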

How the results depend on the processing

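The number of members called stayed at 0 in all 5 comparisons under every alternative. Leaving out 1 library at a time, the median log2 fold change of the members ranged from 0.05 (without library 1 of WT K/BxN ST) to 0.28 (without library 4) in WT, from 0.04 (without library 1 of TASTPM K/BxN ST) to 0.25 (without library 3) in TASTPM, from -0.22 to 0.08 for the interaction, from -0.022 (without library 2 of TASTPM Control ST) to 0.23 (without library 3) for TASTPM against WT in Control ST and from -0.07 to 0.20 in K/BxN ST. That median in Control ST was 0.25 with the sex-linked score as a term, and the cause was not tested. By limma, that fit had 6 members higher in TASTPM at an unadjusted p below 0.05 and 1 lower. Of all 12645 genes, 441 were higher and 355 lower. The same term gave medians of -0.26 for the interaction (25 positive), 0.05 for serum in TASTPM (42 positive), 0.22 for serum in WT (58 positive) and 0.03 between genotypes in K/BxN ST (42 positive). Among all alternative medians, 2 moved by more than the spread between libraries, both for TASTPM against WT in Control ST (0.25 with the sex-linked term and 0.23 without library 3 of TASTPM Control ST). The other 89 moved by less than the spread between libraries, those without the marker-high libraries in WT (-0.03) and TASTPM (-0.11) included, although their sign turned. This spread was taken within groups that hold the marker-high libraries. It is widened by them and cannot show whether these medians are stable without them. Levels per kilobase moved by more than the SD of the gene's own level over the 14 libraries in 9 of 16 cases with another length. By DESeq2, 127 genes of the whole table were called in WT, 16 in TASTPM, 12 for the interaction and 41 for TASTPM against WT in Control ST, against 1, 0, 0 and 0 by limma. No paired analysis was possible because the replicate numbers of the labels run on from group to group and are shared by none.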
